A study of Mus musculus with 4 samples.

Results

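Cxcl9-expressing macrophages of the inflamed spinal cord were chosen cell by cell from raw UMI counts (UMIs are molecular tags that each count 1 captured transcript). A cell needed 500 or more UMIs, 200 or more genes and a mitochondrial share of no more than 10%. It then needed 10 or more Lyz2 UMIs and a Csf1r UMI, which mark monocytes and macrophages, and no UMI of the dendritic cell gene Flt3 or the T cell gene Cd3e. It also had fewer than 5 UMIs of the microglial genes Sparc, P2ry12, Tmem119 and Crybb1 together, under 5% of UMIs from S100a8 and S100a9, fewer than 10 Gpnmb and fewer than 5 Arg1 UMIs, and at least 3 Cxcl9 UMIs. The rule found 734 such cells among the 28598 that passed the first 3 limits and the 29379 barcodes deposited. They numbered 445 and 173 in Reg1-MO libraries 1 and 2, and 95 and 21 in Ctrl MO libraries 1 and 2. They are called Cxcl9 macrophages here. The 1672 cells that met every limit except the Cxcl9 threshold are called other macrophages, and both classes together are the gated macrophages.

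The study compared leukocytes (CD45+ cells) sorted from the spinal cords of C57BL/6 mice that had experimental autoimmune encephalomyelitis (EAE), an autoimmune disease model driven by T cells against myelin. The mice had received either Reg1-MOs or Ctrl MO into the cranium on day 9 of EAE and were sampled on day 16, so EAE and an injected oligomer were common to both groups. The labels do not spell out Reg1 or MO. Reg1 is taken to mean Regnase-1, an RNase that cuts mRNAs of inflammatory genes and is encoded by Zc3h12a. MO is taken to mean morpholino, an antisense oligomer, whose target site is not given. Each group had 2 libraries, and the labels do not say whether these were separate animals, pools or repeat loadings, so the p-values measure only the spread between these libraries, which may be technical.

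CXCL9 is a chemokine that draws activated T cells and natural killer cells through the receptor CXCR3. Its gene is a classical target of interferon-gamma, a cytokine of Th1 cells, CD8 T cells and natural killer cells that acts through a surface receptor and its JAK kinases. Macrophages exposed to interferon-gamma typically also raise CXCL10, guanylate-binding proteins (Gbp), immunity-related GTPases, MHC molecules and antimicrobial enzymes. In EAE, blood monocytes enter the spinal cord and become macrophages next to such T cells.

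The promoters of 3 genes that define or accompany the class, and of the marker Ms4a4c for contrast, are shown to let a reader see which interferon and NF-kB type motifs they hold. They run from 250 bases before to 50 bases after the RefSeq start on GRCm38.p6. Capitals mark matches, on either strand, to GAS (TTCNNNGAA, the interferon-gamma activated site), to the core of the interferon-stimulated response element (GAAANNGAA, bound by IRF factors) or to a kB motif (GGGNNTTCC).
Cxcl9 (chr5:92328030-92328329, minus strand): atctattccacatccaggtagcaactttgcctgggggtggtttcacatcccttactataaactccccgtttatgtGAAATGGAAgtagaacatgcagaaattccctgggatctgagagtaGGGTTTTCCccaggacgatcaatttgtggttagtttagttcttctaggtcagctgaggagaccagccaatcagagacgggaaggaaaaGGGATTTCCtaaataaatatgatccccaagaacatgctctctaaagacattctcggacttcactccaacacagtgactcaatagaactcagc
Cxcl10 (chr5:92348840-92349139, minus strand): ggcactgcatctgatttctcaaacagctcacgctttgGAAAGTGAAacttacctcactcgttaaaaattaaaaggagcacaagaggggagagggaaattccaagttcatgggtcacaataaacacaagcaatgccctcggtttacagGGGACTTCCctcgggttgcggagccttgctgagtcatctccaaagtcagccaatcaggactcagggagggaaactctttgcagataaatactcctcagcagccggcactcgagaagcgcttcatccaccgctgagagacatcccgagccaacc
Gbp5 (chr3:142496684-142496983, plus strand): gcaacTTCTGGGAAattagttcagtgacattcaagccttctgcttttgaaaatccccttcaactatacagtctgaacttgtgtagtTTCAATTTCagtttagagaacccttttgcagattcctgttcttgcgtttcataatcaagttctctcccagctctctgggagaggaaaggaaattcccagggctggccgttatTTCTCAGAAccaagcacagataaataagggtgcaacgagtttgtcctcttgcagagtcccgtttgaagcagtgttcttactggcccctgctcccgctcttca
Ms4a4c (chr19:11407411-11407710, plus strand): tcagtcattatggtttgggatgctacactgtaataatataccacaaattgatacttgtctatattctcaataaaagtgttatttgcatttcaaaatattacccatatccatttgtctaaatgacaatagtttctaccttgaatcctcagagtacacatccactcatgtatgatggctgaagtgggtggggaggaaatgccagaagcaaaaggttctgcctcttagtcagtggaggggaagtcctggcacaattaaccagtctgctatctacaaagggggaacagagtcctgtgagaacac
The Cxcl9 window held 1 core of the response element, which began 175 bases before the start, and kB matches that began 130 and 42 bases before it. The Cxcl10 window held 1 core that began 213 bases before the start and 1 kB match 103 bases before it, and the Gbp5 window held 1 core and 2 GAS matches. No match to these letters lay in the Ms4a4c window. Among 32851 promoters of this length, 8.30% held the GAS motif, 8.56% the core and 5.82% the kB motif. The core was found in 5 of 5 matched Gbp genes, in 6 of 7 immunity-related GTPases and in 11 of 18 genes of a type I interferon list, but in 0 of 6 matched MHC class II genes. Of the 20 genes highest in Cxcl9 macrophages against other macrophages, 17 were matched and 5 held the core (29.4%). A gene counted if any of its promoters held the motif, with 21 promoters for these 17 genes. The shares over 32851 promoters count each promoter, so the 2 kinds of share are not like for like.

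The libraries held 174552218 and 75472324 UMIs for Reg1-MO and 137995955 and 94577206 for Ctrl MO. Cxcl9 macrophages contributed 5818638 and 2387949 UMIs in Reg1-MO libraries, against 1475951 and 361682 UMIs in Ctrl MO libraries. Values of Ctrl MO library 2 therefore rest on 21 cells and the fewest UMIs. The Cxcl9 macrophages had medians of 11997 and 12660 UMIs per cell in Reg1-MO libraries and 15030 and 15920 in Ctrl MO libraries, so each control cell was sampled more deeply. Pairs of libraries shared 10 to 78 cell barcodes, and no barcode of a Cxcl9 macrophage was that of a Cxcl9 macrophage in another library. Scrublet scores marked 5 and 3 Cxcl9 macrophages in Reg1-MO libraries and 1 and 0 in Ctrl MO libraries as likely doublets, and these were kept in the main values.

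The label was set against marker genes. The summed level of 12 mononuclear phagocyte markers was 14977 and 16319 CPM (UMIs per 1000000 UMIs of the class in that library) in Reg1-MO and 14028 and 15779 CPM in Ctrl MO Cxcl9 macrophages. Lyz2 alone gave 10673.5 and 11626 CPM in Reg1-MO and 9742 and 12234.5 CPM in Ctrl MO. The rule requires Lyz2 and Csf1r, so this sum was largely fixed by the choice of cells. In other macrophages the sum was 17324 and 19792 CPM in Reg1-MO and 15597 and 22345 CPM in Ctrl MO libraries. Among the markers of the label other than Cxcl9, Ly6i, a GPI-anchored protein of the Ly6 family, lay at 971 and 813 CPM in Reg1-MO, against 807 and 498 CPM in Ctrl MO Cxcl9 macrophages. In other macrophages Ly6i lay at 526 and 386 CPM in Reg1-MO and 225 and 206 CPM in Ctrl MO libraries. Ms4a4c, a membrane protein of the MS4A family, lay at 672 and 718 CPM in Reg1-MO, against 615 and 335 CPM in Ctrl MO Cxcl9 macrophages. Its level in other macrophages was 505 and 587 CPM in Reg1-MO and 374 and 161 CPM in Ctrl MO libraries. Both markers were thus higher in Cxcl9 macrophages than in other macrophages of the same library in all 4 libraries, but other macrophages held them too.

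The 12 T cell markers, with Cd3e at 0 by the rule, summed to 62.4 and 39.8 CPM in Reg1-MO and 50.8 and 27.6 CPM in Ctrl MO Cxcl9 macrophages. The 8 natural killer cell markers summed to 34.2 and 19.7 CPM in Reg1-MO and 25.7 and 30.4 CPM in Ctrl MO Cxcl9 macrophages. Most of this was Klrk1, with 30.6 and 19.3 CPM in Reg1-MO and 25.1 and 27.6 CPM in Ctrl MO, while Ncr1 and Eomes were at 0 in all 4 libraries. The 5 myelin and oligodendrocyte markers summed to 72.4 and 75.8 CPM in Reg1-MO and 57.6 and 63.6 CPM in Ctrl MO, with Mog at 0 in all 4 libraries. The 10 neutrophil markers summed to 762 and 1082 CPM in Reg1-MO, against 2639 and 11353 CPM in Ctrl MO Cxcl9 macrophages, with none of the 10 at 0 in all libraries. The rule caps S100a8 and S100a9, so this sum is partly limited by the choice of cells. In Ctrl MO library 2, S100a8 had 5983 CPM and S100a9 3876 CPM. Single cells held much of this. The highest cell held 37.7% and 53.7% of the S100a8 UMIs in Reg1-MO and 48.1% and 63.0% in Ctrl MO libraries. For S100a9 it held 19.9% and 46.9% in Reg1-MO and 65.5% and 58.5% in Ctrl MO libraries.

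Cxcl9 macrophages were a larger part of the macrophages in Reg1-MO libraries. They made up 46.4% and 27.5% of the gated macrophages in Reg1-MO libraries, against 19.5% and 6.38% in Ctrl MO libraries. The lowest Reg1-MO library lay above the highest Ctrl MO library, and the 95% Wilson intervals, which cover counting error only, ran from 24.2% to 31.1% and from 16.2% to 23.2% for these libraries. The mean was 36.9% ± 13.3 in Reg1-MO and 12.9% ± 9.25 in Ctrl MO (SD, n = 2 each), a difference of 24.0 percentage points, which was 14.6 points without Reg1-MO library 1 and lay between 17.5 and 33.4 points without any other single library. A two-sided exact permutation test gave p = 0.333, the smallest value that 2 against 2 libraries allow, so the difference could not pass a threshold of 0.05 in this design. The 2 libraries of each group lay further apart than the nearest libraries of the 2 groups.

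Of all cells kept, Cxcl9 macrophages were 5.11% and 3.35% in Reg1-MO libraries and 1.18% and 0.317% in Ctrl MO libraries. The groups did not overlap, the difference in means was 3.48 percentage points, and the exact permutation p was again 0.333. The gate itself was also larger, with 960 of 8715 and 629 of 5170 kept cells in Reg1-MO, against 488 of 8081 and 329 of 6632 in Ctrl MO libraries. Cells with 5% or more of UMIs from S100a8 and S100a9, which are mostly neutrophil-type, numbered 469 and 1031 in Reg1-MO libraries and 2047 and 2462 in Ctrl MO libraries, and they lower every other share where they are many. Without them in the total, Cxcl9 macrophages made up 5.40% and 4.18% in Reg1-MO, against 1.57% and 0.504% in Ctrl MO libraries.

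The order was the same at equal depth. With every gated macrophage thinned to 5000 UMIs and shallower cells left out, at least 3 Cxcl9 UMIs were found in 38.8% and 22.4% of the cells in Reg1-MO, against 16.2% and 3.44% in Ctrl MO libraries. Thinning kept 894 and 606 gated cells in Reg1-MO and 431 and 291 in Ctrl MO libraries. Free RNA was gauged in T cells, which should not make CXCL9: 3 or more Cxcl9 UMIs were seen in 1.70% and 0.609% of them in Reg1-MO libraries and in 0.323% and 0% in Ctrl MO libraries, with medians of 7510, 7581, 7791 and 7307 UMIs in the same order of libraries. The count of 0 was among 966 T cells, and the Wilson interval reached 0.396%. The shares in gated macrophages were far above these, but T cells followed the same order of libraries, and what free RNA adds to the shares of macrophages was not tested.

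**Figure D1:**
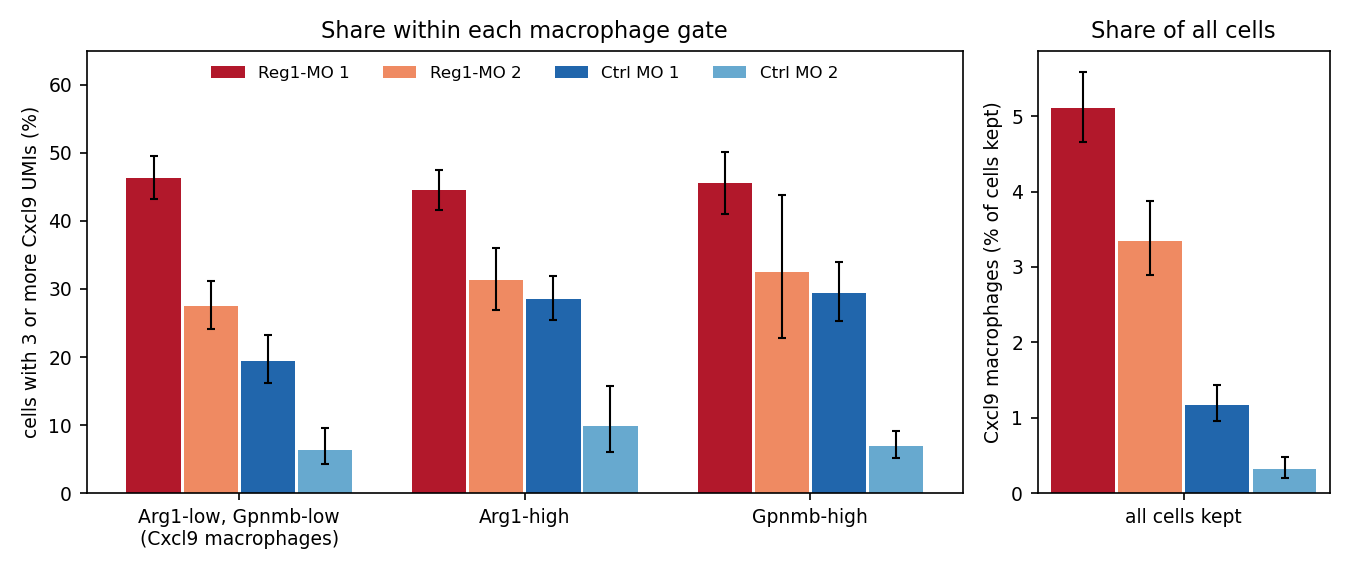
Left, the share (%) of macrophages with 3 or more Cxcl9 UMIs in the Arg1-low, Gpnmb-low gate and in Arg1-high and Gpnmb-high macrophages; right, Cxcl9 macrophages as a share of all cells kept. Each bar is 1 library (red and orange, Reg1-MO 1 and 2; dark and light blue, Ctrl MO 1 and 2) with its 95% Wilson interval; in the gate the Reg1-MO bars stand at 46.4% and 27.5% and the Ctrl MO bars at 19.5% and 6.38%.

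Cxcl9 was not particular to this gate. Among Arg1-high macrophages, 44.5% and 31.3% of the cells had 3 or more Cxcl9 UMIs in Reg1-MO libraries, against 28.6% and 9.93% in Ctrl MO libraries. Among Gpnmb-high macrophages the shares were 45.6% and 32.4% in Reg1-MO and 29.5% and 6.87% in Ctrl MO libraries. Arg1, which encodes arginase 1, and Gpnmb, a glycoprotein of lipid-laden phagocytes, thus did not mark macrophages that lacked Cxcl9 transcripts. Those cells were sampled more deeply, with medians of 15384 to 24749 UMIs. The Cxcl9 macrophages held 17.9% and 31.3% of all Cxcl9 UMIs of the Reg1-MO libraries and 12.1% and 16.6% of those of the Ctrl MO libraries. Cells with 5 or more UMIs of the microglial genes held a further 38.5% and 22.7% in Reg1-MO and 33.2% and 26.0% in Ctrl MO libraries.

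Within the class, Cxcl9 UMIs per cell spread widely. The median Cxcl9 macrophage had 19 and 21 Cxcl9 UMIs in Reg1-MO libraries, against 22 and 13 in Ctrl MO libraries. The highest cell had 223 and 327 UMIs in Reg1-MO and 150 and 147 in Ctrl MO libraries. As a level of the class, Cxcl9 stood at 2673 and 2837 CPM in Reg1-MO and at 1956 and 1772 CPM in Ctrl MO Cxcl9 macrophages, a description only since the gene chose the cells. Just inside the threshold, with exactly 3 UMIs, lay 27 and 12 cells in Reg1-MO and 5 and 3 cells in Ctrl MO libraries. Just outside it, with 2 UMIs, lay 46 and 22 cells in Reg1-MO and 12 and 5 cells in Ctrl MO libraries. Cells with exactly 3 UMIs were fewer than those with 30 or more, which numbered 171 and 77 in Reg1-MO and 34 and 5 in Ctrl MO libraries.

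**Figure D2:**
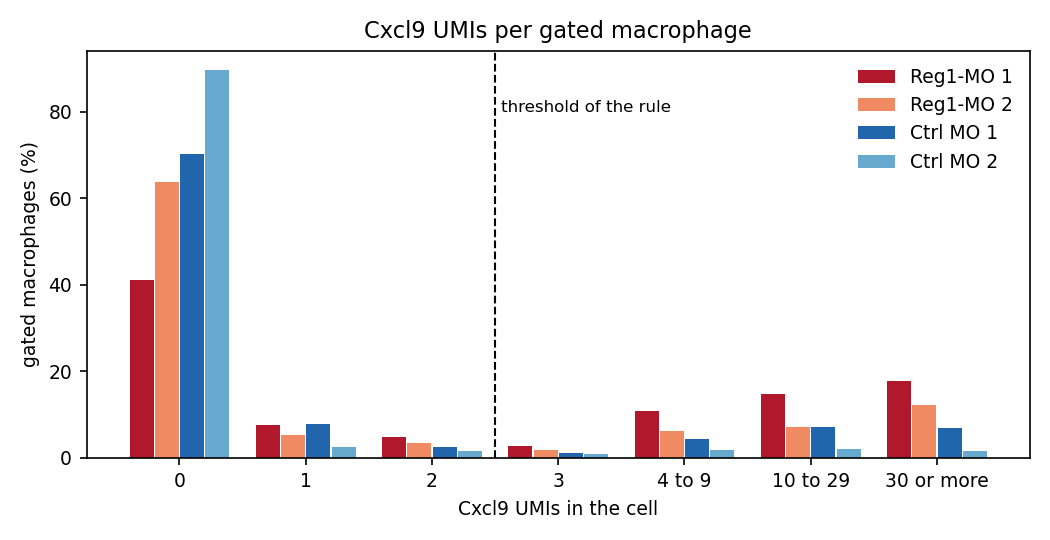
The share (%) of gated macrophages of each library (red and orange, Reg1-MO 1 and 2; dark and light blue, Ctrl MO 1 and 2) by the number of Cxcl9 UMIs in the cell; the dashed line is the threshold of the rule. Cells without a Cxcl9 UMI were 41.1% and 63.8% in Reg1-MO and 70.3% and 89.7% in Ctrl MO libraries, while cells with 30 or more were 17.8% and 12.2% in Reg1-MO and 6.97% and 1.52% in Ctrl MO libraries.

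Set against other macrophages of the same library, Cxcl9 macrophages held more of many interferon-inducible transcripts and fewer transcripts of dividing cells, and the Arg1-high and Gpnmb-high macrophages shared part of this. Both classes come from the same cells split by 1 gene, so these ratios describe the class and are not tested. Of 5800 genes at 20 CPM or more on average, 17.6% were higher and 34.3% lower in Cxcl9 macrophages in all 4 libraries, with a median log2 ratio of -0.12. The genes named next are the 20, Cxcl9 itself included, with the largest ratio in the library where that ratio was smallest, among genes with a mean of at least 50 CPM in the class where they were higher. A gene could pass that limit through its high class alone.

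Cxcl10, the other CXCR3 ligand measured here (Cxcl11 was not analysed here), had 2719 and 2431 CPM in Reg1-MO and 1623 and 1283 CPM in Ctrl MO Cxcl9 macrophages. In other macrophages Cxcl10 had 709.9 and 519 CPM in Reg1-MO and 368 and 13.6 CPM in Ctrl MO libraries. Its lowest value in Cxcl9 macrophages thus exceeded its highest in other macrophages. Cd40, the receptor through which T cells activate antigen-presenting cells, had 181 and 233 CPM in Reg1-MO and 102 and 94.0 CPM in Ctrl MO Cxcl9 macrophages. The other macrophages held 45.4 and 53.6 CPM of Cd40 in Reg1-MO and 21.8 and 5.58 CPM in Ctrl MO libraries. Pdcd1lg2, which encodes the PD-1 ligand PD-L2, had 47.0 to 65.5 CPM in the 4 libraries of Cxcl9 macrophages and 5.99 to 17.8 CPM in those of other macrophages.

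Serpina3g, an intracellular protease inhibitor, ranged from 182 to 268 CPM in Cxcl9 macrophages and from 14.3 to 64.1 CPM in other macrophages. Procr, the protein C receptor, ranged from 38.7 to 95.5 CPM against 3.69 to 19.4 CPM. Neither range overlapped that of the other class. Enzymes among the 20 genes were Acod1, which makes itaconate, Sod2, the mitochondrial superoxide dismutase, and Upp1, uridine phosphorylase. Acod1 had 603 and 688 CPM in Reg1-MO and 564 and 406 CPM in Ctrl MO Cxcl9 macrophages, against 205 and 206 CPM in Reg1-MO and 160.3 and 51.6 CPM in Ctrl MO other macrophages. The cytokine genes Il1a, Il1rn (the IL-1 receptor antagonist) and Inhba (a subunit of activin), the transcription factor Batf2, the transporter Slc7a2, the receptor Gpr84, Sdc4, Cnn3, Calhm6, Ifi205 and Mir155hg, the host transcript of miR-155, completed the set, with log2 ratios of at least 1.39 in every library.

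The interferon families were higher as whole groups. All 8 of 8 Gbp genes at 20 CPM or more were higher in Cxcl9 macrophages in all 4 libraries (median log2 ratio 1.51), as were 4 of 4 immunity-related GTPases (1.503), 12 of 12 MHC class I genes (0.67) and 7 of 7 MHC class II genes (0.72). The class II median joins unlike groups. Cd74 had log2 ratios of 0.12 and 0.24 in Reg1-MO and 1.00 and 1.09 in Ctrl MO libraries. For H2-Aa they were 0.12 and 0.25 in Reg1-MO and 0.97 and 1.60 in Ctrl MO libraries. A list of type I interferon-induced genes had 17 of 19 higher (0.96), and a list of interferon-gamma signalling genes 10 of 15 (0.67) with 2 lower. Gbp2, a GTPase that attacks vacuoles of pathogens, had 1375 and 1369 CPM in Reg1-MO and 1118 and 592 CPM in Ctrl MO Cxcl9 macrophages. In other macrophages Gbp2 had 554 and 332 CPM in Reg1-MO and 315 and 33.5 CPM in Ctrl MO libraries. Beyond interferon genes, 14 of 14 glycolysis genes (0.45), 13 of 15 NF-kB pathway genes (0.70) and 10 of 11 macrophage effector genes (1.01) were higher in all 4 libraries.

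Cell cycle genes and monocyte genes ran the other way. Of 11 cell cycle genes at this level, 10 were lower in Cxcl9 macrophages in all 4 libraries (median log2 ratio -2.38). Ube2c, a ubiquitin-conjugating enzyme of mitosis, had 8.76 and 0.838 CPM in Reg1-MO and 5.42 and 5.53 CPM in Ctrl MO Cxcl9 macrophages, against 131 and 111 CPM in Reg1-MO and 173 and 120.4 CPM in Ctrl MO other macrophages. Ccnb2, Birc5, Nusap1, Cenpa, H2afx, Mki67 and Cks1b, genes of mitosis or chromatin in dividing cells, and the cell cycle inhibitor Cdkn2d were also among the 12 lowest. F13a1, the A chain of coagulation factor XIII and a monocyte marker, had 202 and 297 CPM in Reg1-MO and 357 and 304 CPM in Ctrl MO Cxcl9 macrophages. In other macrophages F13a1 had 739 and 961 CPM in Reg1-MO and 1449 and 1699.9 CPM in Ctrl MO libraries. Of 12 monocyte genes, 10 were lower in all 4 libraries (-0.63). The coagulation gene F5 and Add3, which encodes a membrane skeleton protein, were the remaining genes of the lowest 12. Ube2c was also low in Arg1-high macrophages, with 13.5 and 1.37 CPM in Reg1-MO and 10.5 and 1.74 CPM in Ctrl MO libraries. In Gpnmb-high macrophages it had 7.61 and 0.504 CPM in Reg1-MO and 3.97 and 3.02 CPM in Ctrl MO libraries. Of the 12 lowest genes, F13a1 alone was lower in Cxcl9 macrophages than in both these classes in all 4 libraries (log2 ratios of -0.80 to -1.84). Low levels of the cell cycle genes among the 12 were thus not particular to Cxcl9 macrophages. Inhba was lower in Cxcl9 macrophages than in Arg1-high and Gpnmb-high macrophages in all 4 libraries (log2 ratios of -0.03 to -0.76), and Il1a and Slc7a2 were higher or lower than in Arg1-high macrophages depending on the library. Cxcl10 was higher in Cxcl9 macrophages than in both, with log2 ratios of at least 2.20 in each library. Arg1-high and Gpnmb-high macrophages were chosen without the Cxcl9 threshold, so ratios to them mix that threshold with the difference between classes. Their cells that met the threshold were not compared separately. Whether the Cxcl10 or F13a1 level was particular to Cxcl9 macrophages was therefore not tested.

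**Figure D3:**
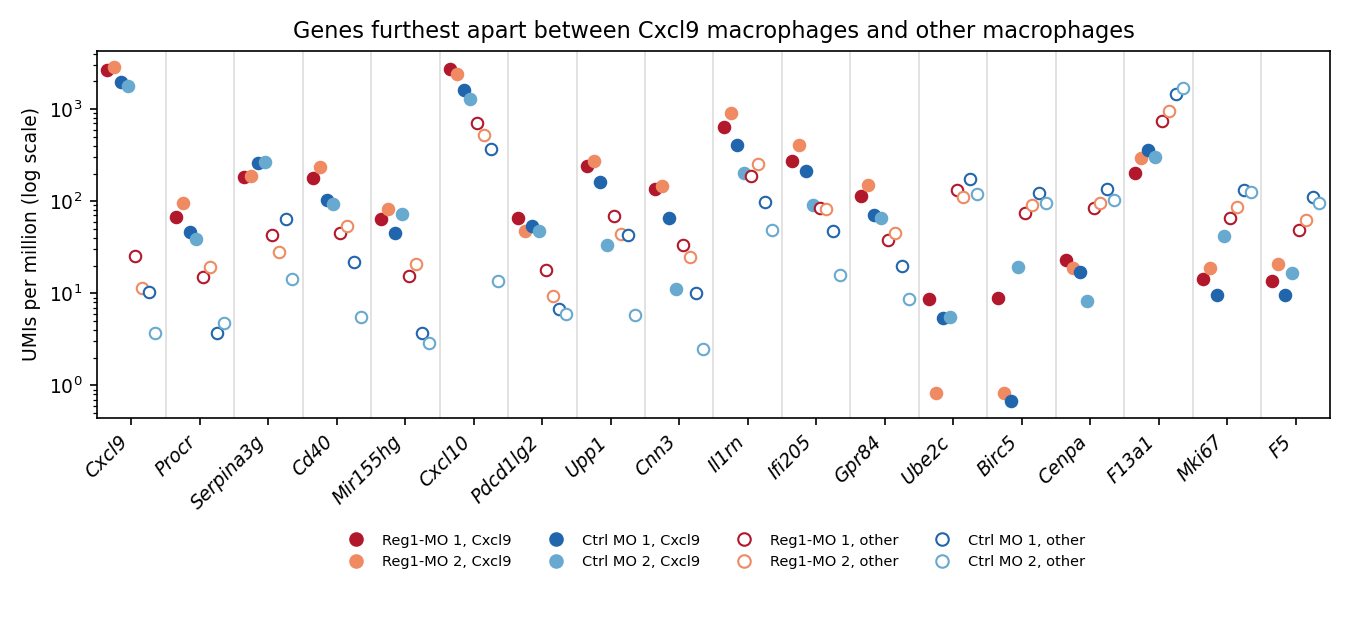
CPM (log scale) of the 12 genes highest and 6 of the 12 lowest in Cxcl9 macrophages (filled) against other macrophages (open), by the rule for named genes; each point is 1 library (red and orange, Reg1-MO; dark and light blue, Ctrl MO). Filled points lie above the open points of the same library colour for the left 12 genes and below them for the right 6; Cxcl10 stands at 1283 to 2719 CPM in the filled points and at 13.6 to 709.9 CPM in the open ones.

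Several of these transcripts were most abundant in the cells with the most Cxcl9. Cxcl10 in gated macrophages with no Cxcl9 UMI stood at 626 and 540.5 CPM in Reg1-MO and 365 and 14.0 CPM in Ctrl MO libraries. With 30 or more Cxcl9 UMIs it stood at 3293 and 3418 CPM in Reg1-MO and at 2418 and 2747 CPM in Ctrl MO libraries. Gbp2 stood at 514 and 330.1 CPM in Reg1-MO and 290.3 and 30.4 CPM in Ctrl MO libraries without Cxcl9, and at 1707 and 1618 CPM in Reg1-MO and 1225 and 796 CPM in Ctrl MO libraries at 30 or more UMIs. For Mki67, a marker of proliferation, the cells without Cxcl9 had 62.8 and 95.03 CPM in Reg1-MO and 144 and 131 CPM in Ctrl MO libraries. With 30 or more Cxcl9 UMIs, Mki67 had 16.7 and 15.6 CPM in Reg1-MO and 7.41 and 0 CPM in Ctrl MO libraries. The highest group held 5 cells of Ctrl MO library 2, so its values there are coarse.

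After thinning to 5000 UMIs, the share of single cells with a UMI was compared for genes chosen with the data known. Nos2, the inducible nitric oxide synthase, had a UMI in 39.6% and 32.7% of Cxcl9 macrophages in Reg1-MO and in 38 of 91 and 6 of 20 in Ctrl MO libraries. Other macrophages had a Nos2 UMI in 15.5% and 7.13% of cells in Reg1-MO and in 15.3% and 2.95% in Ctrl MO libraries. Vcan, the monocyte proteoglycan versican, had a UMI in 20.7% and 25.1% of Cxcl9 macrophages in Reg1-MO and in 20 of 91 and 1 of 20 in Ctrl MO libraries. In other macrophages Vcan had one in 24.9% and 32.4% in Reg1-MO and in 47.6% and 42.4% in Ctrl MO libraries. Il12b, which encodes the shared subunit of IL-12 and IL-23, had a UMI in 1 and 0 cells of 429 and 171 Cxcl9 macrophages in Reg1-MO libraries and in no cell of 91 and 20 in Ctrl MO libraries. In other macrophages it had a UMI in 0 and 2 cells in Reg1-MO libraries and in none in Ctrl MO libraries. Ly6c2, a surface marker of inflammatory monocytes, had a UMI in 80.2% and 82.5% of Cxcl9 macrophages and in 81.5% and 80.2% of other macrophages in Reg1-MO libraries. In Ctrl MO libraries the numbers were 79 of 91 and 16 of 20 Cxcl9 macrophages and 87.6% and 81.9% of other macrophages.

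Zc3h12a, the gene that the name Reg1 is taken to mean, was measured before the other treatment effects. It had 49.8 and 51.1 CPM in Reg1-MO and 51.5 and 63.6 CPM in Ctrl MO Cxcl9 macrophages. Both Reg1-MO values lay below the Ctrl MO values, with a log2 fold change of -0.11 ± 0.18 (SE) and an adjusted p of 0.900. Counts of 3′ ends report neither splicing nor translation, so this level does not check the action of a morpholino. Zc3h12a lies on chromosome 4, from 125118423 to 125127840 on GRCm38.

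Treatment was then compared within Cxcl9 macrophages on summed UMIs per library with edgeR, Reg1-MO over Ctrl MO, where a call means a p under 0.05 after Benjamini-Hochberg adjustment over all genes tested. Of 8711 genes tested, 2 passed, Lcn2 and Mmp8, both lower in Reg1-MO. This is 0.023% of the genes in the lower direction and 0% in the higher, while 421 genes were higher and 424 lower at an unadjusted p under 0.05. DESeq2 called 6 genes higher and 29 lower. The number of calls moved with the libraries used: 97 without Reg1-MO library 1, 20 without Reg1-MO library 2, 931 without Ctrl MO library 1 and 153 without Ctrl MO library 2. Lcn2 encodes lipocalin 2, which sequesters bacterial iron carriers, and Mmp8 the collagenase of neutrophil granules.

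Lcn2 (chromosome 2, from 32384633 to 32388252) had 38.5 and 26.0 CPM in Reg1-MO, against 176 and 235 CPM in Ctrl MO Cxcl9 macrophages. Mmp8 (chromosome 9, from 7558456 to 7568485) had 36.8 and 23.03 CPM in Reg1-MO, against 159 and 191 CPM in Ctrl MO. Both Ctrl MO libraries were several times above both Reg1-MO libraries. The log2 fold change was -2.57 ± 0.24 (SE) for Lcn2 and -2.44 ± 0.24 for Mmp8, with an adjusted p of 0.046 for each. Both were also called in each of the 4 fits without 1 library, where the log2 fold changes were -2.92 to -2.35 for Lcn2 and -2.86 to -2.19 for Mmp8. Those fits assume that the lone library of an arm varies like the other group, and they called 20 to 931 genes in all. With RLE size factors both had an adjusted p of 0.0503, with the cells of highest Scrublet score removed 0.0757, and at a Cxcl9 threshold of 5 UMIs Mmp8 had 0.0568. Other macrophages showed both differences as well. There Lcn2 had 173 and 71.8 CPM in Reg1-MO, against 551 and 733 CPM in Ctrl MO (-2.30 ± 0.41, adjusted p 0.0493), and Mmp8 had 69.7 and 84.4 CPM in Reg1-MO, against 351 and 507 CPM in Ctrl MO (-2.40 ± 0.20, adjusted p 0.0226).

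Lcn2 transcripts were spread over cells: a UMI was found in 60 of 445 and 22 of 173 Cxcl9 macrophages in Reg1-MO libraries and in 49 of 95 and 8 of 21 in Ctrl MO libraries. For Mmp8 the numbers were 102 and 28 cells in Reg1-MO and 48 and 14 cells in Ctrl MO libraries. The highest cell held 17.4% and 33.9% of the Lcn2 UMIs in Reg1-MO and 23.8% and 25.9% in Ctrl MO libraries. Of the UMIs of Camp, a granule gene, the highest cell held 2 of 34 and 2 of 20 in Reg1-MO libraries and 5 of 30 and 251 of 262 in Ctrl MO libraries. The neutrophil marker sum given above moved with these genes. S100a8 had a UMI in 49.4% and 56.1% of Cxcl9 macrophages in Reg1-MO and in 91.6% and 95.2% in Ctrl MO libraries. Cells with 5% or more of UMIs from S100a8 and S100a9 were also more numerous in both Ctrl MO libraries. Free RNA could also be spread over many cells, and what it adds to Lcn2 and Mmp8 was not tested. When cells with 1% or more of UMIs from S100a8 and S100a9 were left out (6 and 2 cells in Reg1-MO, 3 and 3 in Ctrl MO libraries), an alternative added after the data were seen, 12 genes were called, all lower in Reg1-MO. Lcn2 was then lower by a log2 fold change of -2.72 and Mmp8 by -2.33, both called.

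The 8 further lower genes that the naming rule took missed the edgeR test and were called by DESeq2, with adjusted p from 1.5e-09 for Il1r2 to 0.019 for Klf9. Chil3, a chitinase-like protein of monocytes and macrophages, was the most abundant, with 2994 and 1544 CPM in Reg1-MO, against 8119 and 8342 CPM in Ctrl MO Cxcl9 macrophages (log2 fold change -1.83 ± 0.27, adjusted p 0.154). Il1r2, the decoy receptor of IL-1, had 129.8 and 84.6 CPM in Reg1-MO, against 394 and 506 CPM in Ctrl MO (-2.01 ± 0.24, adjusted p 0.108). Retnlg, a resistin-like protein of neutrophils, had 35.1 and 83.8 CPM in Reg1-MO and 298 and 420.3 CPM in Ctrl MO, with 1 cell holding 69.6% and 62.0% of its UMIs in Reg1-MO and 74.3% and 58.6% in Ctrl MO libraries. The naming rule took only genes without overlap between groups, which 24.3% of all genes tested met in this direction. Chil3 (-2.06, adjusted p 0.0261) and Il1r2 (-1.59, adjusted p 0.0241) were also called lower in Reg1-MO among other macrophages. In Cxcl9 macrophages Retnlg had a log2 fold change of -2.58, which ran from -3.30 to -2.04 with 1 library left out. The others were Fpr2 (a formyl peptide receptor, -1.32), Cd33 (-1.57), Ms4a8a (-1.73), the transcription factor Klf9 (-1.21) and the RNA-binding protein Rbm3 (-0.95), with adjusted p from 0.112 to 0.165.

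No gene was called higher, and the 10 genes that the rule took in this direction missed the edgeR test with adjusted p from 0.157 to 0.273. DESeq2 called 3 of the 10, namely Cxcl10, Calhm6 (adjusted p 0.0185) and Taf4b (0.0498). Cxcl10 was among them, with the values given above (log2 fold change 0.85 ± 0.16, adjusted p 0.218; DESeq2 adjusted p 0.0422). Cd40 had a log2 fold change of 1.08 ± 0.19 and an adjusted p of 0.195. Il18, a cytokine that raises interferon-gamma in lymphocytes, had 57.6 and 64.9 CPM in Reg1-MO, against 26.4 and 16.6 CPM in Ctrl MO Cxcl9 macrophages. Hmox1, heme oxygenase 1, had 183 and 165 CPM in Reg1-MO and 90.1 and 69.1 CPM in Ctrl MO. The largest ratio was that of Taf4b, a subunit of a transcription factor complex, with 38.7 and 46.5 CPM in Reg1-MO and 11.5 and 5.53 CPM in Ctrl MO (2.06 ± 0.33, and 1.86 to 3.01 with 1 library left out). Pgm1, Calhm6, Ifi206, Pid1 and Atf3 made up the rest, with log2 fold changes of 0.73 to 1.27.

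**Figure D4:**
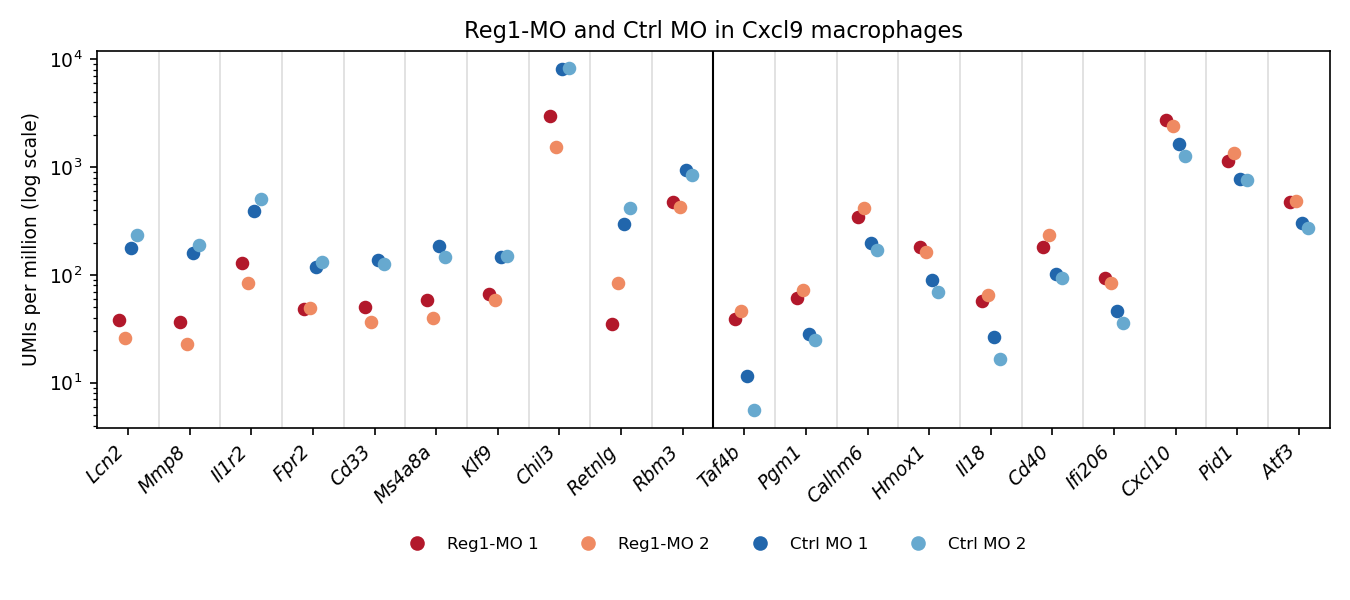
CPM (log scale) in Cxcl9 macrophages of the 10 lower genes (left of the line) and 10 higher genes (right) taken by the naming rule; each point is 1 library (red and orange, Reg1-MO 1 and 2; dark and light blue, Ctrl MO 1 and 2). Lcn2 stands at 38.5 and 26.0 CPM in Reg1-MO and at 176 and 235 CPM in Ctrl MO; only Lcn2 and Mmp8 passed the test.

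Whole groups of genes leaned one way without a call. Over all genes tested, 21.6% had both Reg1-MO libraries above both Ctrl MO libraries and 24.3% had both below, and the median log2 fold change was -0.01. In the type I interferon list 16 of 22 genes had both Reg1-MO libraries above (median 0.67), 12 at an unadjusted p under 0.05 and 0 by edgeR after adjustment. Isg15, a ubiquitin-like interferon product, had 323 and 415 CPM in Reg1-MO, against 205 and 108 CPM in Ctrl MO Cxcl9 macrophages (log2 fold change 1.18 ± 0.29, adjusted p 0.340). With 1 library left out the log2 fold change was 0.84 to 1.87. Isg15 was the only gene of the list called by DESeq2. Glycolysis genes had 12 of 14 above (median 0.42), 7 at an unadjusted p under 0.05, and none called by edgeR or DESeq2. Slc2a1, the glucose transporter GLUT1, had 383 and 423 CPM in Reg1-MO, against 242 and 152 CPM in Ctrl MO (1.01 ± 0.23, adjusted p 0.329). The NF-kB list had 11 of 15 above and 1 below (median 0.34), with 7 at an unadjusted p under 0.05 and none called by either tool. In other macrophages the medians of the type I interferon, glycolysis and NF-kB lists were larger, at 1.24, 0.62 and 0.66. These leans were thus not particular to Cxcl9 macrophages.

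The families of the interferon-gamma response named next had medians from 0.24 to 0.52, while MHC class II genes, described below, had a median of -0.01. Of 8 Gbp genes, 7 had both Reg1-MO libraries above (median 0.45), as did 4 of 7 immunity-related GTPases (0.52), 10 of 15 interferon-gamma signalling genes (0.29) and 7 of 12 MHC class I genes (0.24). Unadjusted p was under 0.05 for 2, 2, 3 and 2 of these genes in the order given, and neither tool called one. In other macrophages the medians were larger, at 1.13, 1.11, 0.59 and 0.74 in the same order. Gbp2 had a log2 fold change of 0.69 ± 0.27, which was 1.31 without Ctrl MO library 1 and 0.30 without Ctrl MO library 2. Gbp5, another guanylate-binding protein, had 211 and 212 CPM in Reg1-MO and 166 and 194 CPM in Ctrl MO (0.28 ± 0.16, adjusted p 0.614). Ctrl MO library 2 had the lowest Gbp2 value, 592 CPM, in 21 cells.

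Transcripts of resident or mature macrophages leaned the other way. Of 13 such genes, 7 had both Reg1-MO libraries below both Ctrl MO libraries and 2 above (median -0.70), with 8 lower at an unadjusted p under 0.05, none called by edgeR and 2 lower by DESeq2. C1qa, a chain of complement C1q, had 566 and 487 CPM in Reg1-MO, against 875 and 1062 CPM in Ctrl MO Cxcl9 macrophages (-0.84 ± 0.16, adjusted p 0.216). Apoe, apolipoprotein E, had 3662 and 1982 CPM in Reg1-MO, against 4856 and 7891 CPM in Ctrl MO (-1.14 ± 0.30, adjusted p 0.383). Among 12 monocyte genes 7 had Reg1-MO below and 2 above (median -0.36), 5 of them at an unadjusted p under 0.05. Ly6c2, the inflammatory monocyte antigen, had 1119 and 970.3 CPM in Reg1-MO, against 1501 and 1559 CPM in Ctrl MO (-0.52 ± 0.14, adjusted p 0.383). The chemokine receptor Ccr2 went against this order, with 425 and 505 CPM in Reg1-MO and 293 and 196 CPM in Ctrl MO (0.92 ± 0.22, adjusted p 0.340).

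A list of 14 transcripts written as reported Regnase-1 substrates had 12 tested. Of these, 7 lay above 0 and 5 below (median log2 fold change 0.24), while 48.9% of all genes tested lay above 0. Among the 12, 1 was called, Lcn2, in the lower direction. Il1b, the most abundant, had 4623 and 5244 CPM in Reg1-MO, against 4198 and 3589 CPM in Ctrl MO Cxcl9 macrophages (0.37 ± 0.14, adjusted p 0.465). Among 8 tested RNA decay factors, Zc3h12a included, 5 had both Reg1-MO libraries below and none above, with 2 at an unadjusted p under 0.05 and none called by either tool.

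MHC class II genes present antigen to CD4 T cells. Their treatment effects were compared between the 2 classes, and the difference passed its own test for 1 of 8, Cd74. In other macrophages 293 of 11109 genes were called, 1.25% higher and 1.39% lower, and 6 of 8 MHC class II genes were among those higher in Reg1-MO (median log2 fold change 1.13). In fits without 1 library, where the arm of 1 library is assumed to vary like the other group, the calls in other macrophages numbered 0 without Reg1-MO library 1 (1332 at an unadjusted p under 0.05 in edgeR), 2 without Reg1-MO library 2, and 1240 and 223 without Ctrl MO library 1 and 2. In Cxcl9 macrophages none of the 8 was called by edgeR or DESeq2, 3 were higher at an unadjusted p under 0.05, and the median was -0.01. Cd74, the invariant chain, had 12343 and 12334 CPM in Reg1-MO and 10493 and 10852 CPM in Ctrl MO Cxcl9 macrophages. In other macrophages it had 11393 and 10474 CPM in Reg1-MO, against 5249 and 5111 CPM in Ctrl MO. The Ctrl MO other macrophages thus stood apart from the remaining 3 combinations.

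The difference between the 2 treatment effects was tested as an interaction term, with each library as a block since both classes came from it. The classes were split by Cxcl9, itself an interferon-gamma target, and what this split adds to the difference was not tested. Of 11261 genes, 1 was called, Cd74 (log2 difference -0.84 ± 0.07, adjusted p 0.0139), which is 0.00888% in the lower direction and 0% in the higher, with 233 higher and 315 lower at an unadjusted p under 0.05. Without 1 library the difference was -0.92 to -0.75. The call was lost (adjusted p 0.149) in the fit without Reg1-MO library 1, which leaves 1 library in that arm, and the numbers of calls were 0, 1, 180 and 36 without Reg1-MO library 1, Reg1-MO library 2, Ctrl MO library 1 and Ctrl MO library 2. H2-Ab1 and H2-Eb1, chains of the class II molecules, had differences of -1.11 ± 0.14 and -1.06 ± 0.14, each with an adjusted p of 0.144. H2-Ab1 had 3062 and 2764 CPM in Reg1-MO and 2844 and 3196 CPM in Ctrl MO Cxcl9 macrophages, against 2585 and 2163 CPM in Reg1-MO and 1254 and 992 CPM in Ctrl MO other macrophages. Leaving out cells with 1% or more of S100a8 and S100a9 UMIs gave 19 calls, Cd74, H2-Ab1, H2-Eb1 and H2-Aa among them, and left 20 calls in other macrophages.

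The same levels were read by Cxcl9 count. In gated macrophages without a Cxcl9 UMI, Cd74 stood at 10041 and 9422 CPM in Reg1-MO, against 4717 and 4851 CPM in Ctrl MO libraries. With 1 or 2 Cxcl9 UMIs it stood at 15692 and 17566 CPM in Reg1-MO and at 9964 and 9671 CPM in Ctrl MO libraries. With 30 or more it stood at 11034 and 11468 CPM in Reg1-MO and at 12287 and 9496 CPM in Ctrl MO libraries. Unlike Cxcl10 and Gbp2, Cd74 was not highest in the cells with the most Cxcl9 in Reg1-MO libraries, and the groups stood apart where Cxcl9 was absent or low.

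**Figure D5:**
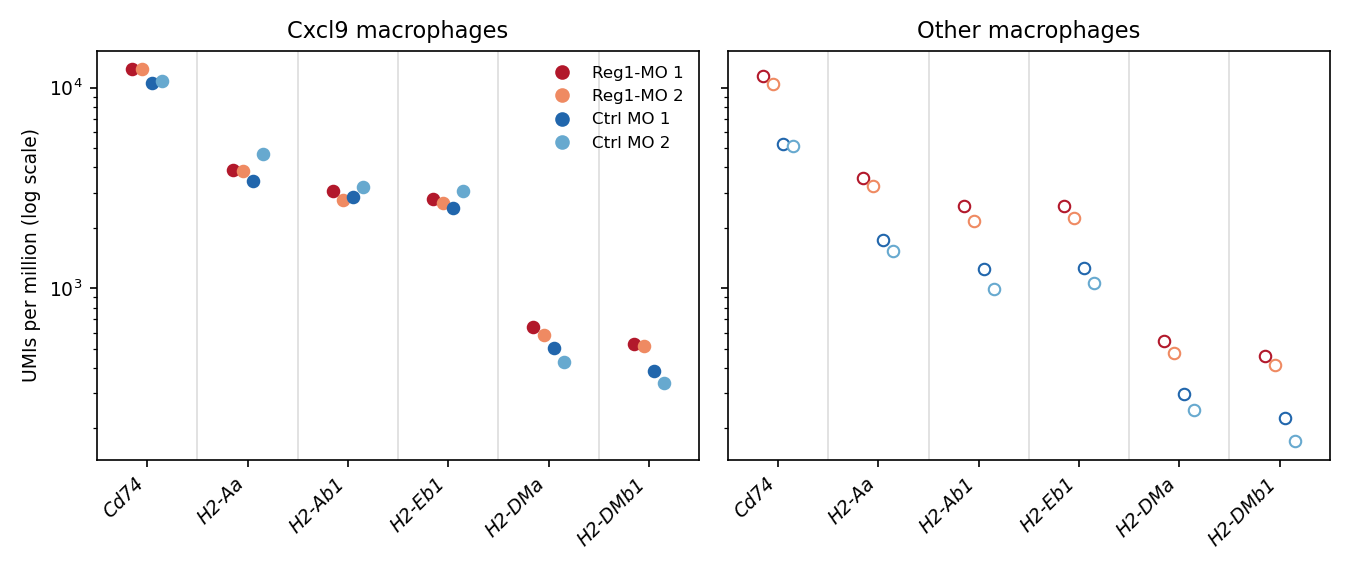
CPM (log scale) of 6 MHC class II genes in Cxcl9 macrophages (left) and other macrophages (right); each point is 1 library (red and orange, Reg1-MO 1 and 2; dark and light blue, Ctrl MO 1 and 2). Cd74 stands at 12343 and 12334 CPM in Reg1-MO and 10493 and 10852 CPM in Ctrl MO on the left, and at 11393 and 10474 CPM in Reg1-MO and 5249 and 5111 CPM in Ctrl MO on the right.

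The other genes that the rule took from this test missed the threshold, each with an adjusted p of 0.144. Apoe had a difference of -0.54 ± 0.07 and Fth1, the heavy chain of ferritin, of -0.55 ± 0.08. Car2, carbonic anhydrase 2, had a difference of 5.36 ± 0.71, which was 3.79 without Ctrl MO library 1 and 6.65 without Ctrl MO library 2, at low levels: 4.64 and 5.03 CPM in Reg1-MO and 1.36 and 11.1 CPM in Ctrl MO Cxcl9 macrophages, against 1.39 and 1.77 CPM in Reg1-MO and 46.2 and 47.5 CPM in Ctrl MO other macrophages.

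Chemokines that draw other leukocytes showed no common direction in Cxcl9 macrophages. Of 13 tested chemokine genes other than CXCR3 ligands, 4 lay above 0 and 9 below, while 48.9% of all genes tested lay above 0. None of the 13 was called by edgeR or DESeq2, and 5 had an unadjusted p under 0.05. Ccl5, a chemokine for T cells and monocytes, had 1981 and 2058 CPM in Reg1-MO and 1008 and 2024 CPM in Ctrl MO Cxcl9 macrophages, with overlapping groups and a log2 fold change of 0.46 ± 0.27 (adjusted p 0.622). Cxcl16, the ligand of CXCR6, had 656 and 669 CPM in Reg1-MO, against 481 and 357 CPM in Ctrl MO (0.67 ± 0.19, adjusted p 0.389). Ifng itself was nearly absent from the class, with 6 and 10 UMIs in Reg1-MO and 2 and 0 UMIs in Ctrl MO Cxcl9 macrophages. In T cells (at least 2 Cd3e and fewer than 10 Lyz2 UMIs) Ifng had 468 and 318 CPM in Reg1-MO libraries and 350.4 and 283 CPM in Ctrl MO libraries, with overlapping groups.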

How the data were processed

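UMI counts per gene and cell barcode were deposited by the authors as 4 filtered matrices, made with Cell Ranger 5.0.1 according to their headers, and the submitters' processing notes also name mm10 and Seurat 4.0. For the annotation release and the cell calling, settings were not given in the sources used. Cells were 10x Genomics 3′ libraries, and sample groups came from the labels.

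The members, gene lists and tests were chosen with earlier results of these data known. Raw counts of the rule's cells were summed per library and class, giving 361682 to 5818638 UMIs for Cxcl9 macrophages, which limits precision most in Ctrl MO library 2. They were tested in R 4.3.3 with edgeR 4.0.16 (filterByExpr with a minimum count of 10, TMM scaling, quasi-likelihood F-test with no covariate, Benjamini-Hochberg adjustment, threshold 0.05). The interaction used both classes with the library as a block. DESeq2 1.42.0, RLE scaling, no count filter, other Cxcl9 thresholds, removal of cells with the highest Scrublet scores (scanpy 1.11.5) or with T cell receptor UMIs, a replicate block and leaving out each library were alternatives. Shares have Wilson 95% intervals and exact permutation tests (Python 3.11.15, scipy 1.17.1). Ratios between classes used a pseudocount of 1 CPM. The edgeR steps were tested on simulated counts.

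The text names, for treatment, the 10 genes in each direction with no overlap between groups and a mean of at least 20 CPM, called genes first and then those of smallest p. Between classes it names the 20 highest and 12 lowest by the smallest ratio over the libraries, at a mean of at least 50 CPM in the class where the gene was higher. From each list it takes the most abundant and the called members, and from the interaction the 6 smallest p. Gene levels of same-numbered libraries did not deviate together (correlation -0.09 in Cxcl9 macrophages and 0.05 in other macrophages), so the numbers were not taken as pairs. This covers gene levels only. The share of Cxcl9 macrophages in the gate was higher in library 1 than in library 2 of both groups (46.4% and 27.5% in Reg1-MO, 19.5% and 6.38% in Ctrl MO). The depth of cells with 5 or more microglial UMIs also followed the number. Whether the numbers mark a shared batch was not tested. Cxcl11, Gbp11, Gm12250 and Mx1 were not analysed here. Promoters are from RefSeq on GRCm38.p6, and gene positions from the GENCODE M21 annotation of GRCm38.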

Additional observations from a re-analysis of the deposited data

Results flagged for a closer look

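The treatment effect on Cd74 differed between the 2 classes of macrophage by the interaction test: the log2 effect in Cxcl9 macrophages minus that in other macrophages was -0.84 (adjusted p 0.0139, edgeR). Both Reg1-MO libraries lay above the 2 Ctrl MO libraries in each class. The classes were split by their Cxcl9 UMIs, and what this split adds to the difference was not tested. Groups of 2 libraries are too small for a check of single outlying libraries.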

How the results depend on the processing

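Cxcl9 macrophages as a share of gated macrophages and of kept cells stayed higher in Reg1-MO in the alternatives run, with leave-one-out differences of 14.6 to 33.4 and 2.60 to 4.36 percentage points. Counts of called genes moved widely. In Cxcl9 macrophages, against 2 calls, RLE size factors gave 0 (848 at an unadjusted p under 0.05 in edgeR; DESeq2 gave 35), no count filter 254, removal of the highest Scrublet scores 1, a Cxcl9 threshold of 5 UMIs 1, a limit of 1% on S100a8 and S100a9 12, and leaving out 1 library 20 to 931. In other macrophages, against 293 calls, no filter gave 1779, a threshold of 2 UMIs 168, the 1% limit 20, DESeq2 504, and leaving out 1 library 0 to 1240. For the interaction, against 1 call, no filter gave 116, a threshold of 2 UMIs 12, the 1% limit 19, and leaving out 1 library 0 to 180. With a replicate block the calls were 72 in Cxcl9 macrophages and 501 in other macrophages, 2 and 285 of them shared with the fit without it; the libraries share only a number, so this is no paired design. The 1% limit was chosen after the data were seen, and the cause of these changes was not tested. The log2 effects of H2-Aa, H2-Ab1 and H2-Eb1 in Cxcl9 macrophages, all near 0 and uncalled, turned positive without a filter (0.025, 0.036 and 0.051) and at a threshold of 2 UMIs (0.080, 0.088 and 0.12). Leaving out 1 library gave -0.18 to 0.18 for H2-Aa, -0.086 to 0.064 for H2-Ab1 and -0.072 to 0.11 for H2-Eb1. Of 651 alternative values for 51 single-gene effects, 450 kept direction and side of the threshold, 184 gained a call, 6 lost one and 11 reversed. Depth limits Ctrl MO library 2 most, with 21 cells.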

Other observations

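Cxcl9 transcripts also lay in cells with 5 or more UMIs of the microglial genes Sparc, P2ry12, Tmem119 and Crybb1. At least 3 Cxcl9 UMIs were found in 52.8% and 13.9% of these cells in Reg1-MO libraries and in 36.0% and 8.45% in Ctrl MO libraries. The groups overlapped, and the median depth of these cells differed between libraries, at 42255 and 17429 UMIs in Reg1-MO and 41452 and 17261 UMIs in Ctrl MO libraries, so these shares were not compared.

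Fkbp5, an immunophilin of steroid receptor complexes, was looked at after its values were seen. It had 57.7 and 34.8 CPM in Reg1-MO, against 128 and 174 CPM in Ctrl MO Cxcl9 macrophages (log2 fold change -1.59 ± 0.27, adjusted p 0.175 by edgeR). In other macrophages Fkbp5 had 101 and 57.6 CPM in Reg1-MO, against 189 and 242 CPM in Ctrl MO (-1.36 ± 0.28, adjusted p 0.0628). Both Reg1-MO libraries lay below both Ctrl MO libraries in each class, and neither difference passed the test.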
